A study of Mus musculus with 24 samples.

Results

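Macrophages, monocytes and neutrophils were sorted from normal colon lamina propria (LP) and from colon tumours, and their RNA was sequenced in 24 libraries. The 40 genes described here were chosen by their measured tumour and LP values: the value of each in every one of the 12 tumour libraries lay under its value in every one of the 12 LP libraries. They were taken from the 12878 genes with a mean of at least 1 RPKM (reads normalised for both the length of the gene and the size of the library) in at least 1 of the 8 groups, out of 17301 genes deposited. LP cells came from wild-type C57BL/6J mice, and tumour cells from polyps of *Apc* Min/+ mice, in which a mutant *Apc* allele is present in every cell and intestinal adenomas form. Per the study's methods, mice of both genotypes and both sexes drank dextran sodium sulphate (DSS) for 1 week, starting at 6 to 8 weeks of age. They were analysed 4 weeks later at 3 to 4 months, and the DSS concentrations differed between the genotypes. The labels, however, call the LP healthy, so the treatment behind the LP libraries is not settled. Each population was sorted from the pooled tissue of 13 to 15 mice: F4/80hi MHCIIhi macrophages, F4/80hi MHCIIlow macrophages, Ly6Chi MHCII- monocytes and Ly6Ghi neutrophils, with 3 libraries of each from each tissue. LP was stripped of epithelium with EDTA, digested for longer than the tumours and enriched on another Percoll gradient, so tissue, genotype, DSS concentration and digestion cannot be told apart in any difference between LP and tumour.

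The extracellular matrix of the gut wall is made mainly by fibroblasts and smooth muscle cells, which secrete fibrillar collagens and the small proteoglycans that order the fibrils. The same stromal cells and the lymphatic vessels release chemokines that place leucocytes in the tissue. Resident macrophages lie against this stroma, take up matrix and dying cells, and respond to cytokines through JAK and STAT proteins, which suppressors of cytokine signalling restrain.

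The rule used tumour against LP in all 24 libraries, so every tumour value of these genes set beside an LP value is a description, and no test of it is given. The 40 genes were 0.311% of those tested, and the reverse rule (every tumour library above every LP library) held for 18 genes, 0.14%. Within single populations, all 3 tumour libraries lay under all 3 LP libraries for 22.1% of tested genes in MHCIIhi macrophages, 19.3% in MHCIIlow macrophages, 15.1% in monocytes and 21.8% in neutrophils. All 40 genes are protein coding in the GENCODE M21 annotation, as are 85.2% of the tested genes, and they lie on 15 chromosomes, with at most 5 on the same one (chromosome 1). The gap between the lowest LP and the highest tumour library ran from 6.56 log2 units for *Lum* to 0.014 for *Fam214b*, and 15 genes had a gap over 1. For *Lum*, *Sparcl1* and *Efemp1* every tumour library was at 0 reads. Their tumour value is set by the prior count of 0.25 reads, so the gap is not a measured distance. The lowest LP library of *Lum* was at 0.404 RPKM, and 3 reads in a tumour library were up to 0.188 RPKM. Just inside the rule lay *Pttg1ip* (gap 0.040), *Plrg1* (0.019) and *Fam214b*, and just outside it *Ifit1* (−0.0089), *Cars* (−0.0091) and *Nup35* (−0.012). The lowest maximal group means were those of *Sparcl1* (1.23 RPKM), *C1qtnf3* (1.27 RPKM) and *Col1a2* (1.52 RPKM), and without the RPKM minimum the rule again gave 40 genes.

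The genes fell into 2 sets by their tumour level. In 23 genes no tumour group reached a mean of 1 RPKM, and these passed the expression minimum through LP groups alone. They are called near-absent for that level only. Some had reads in most tumour libraries, with medians of 23.5 for *Ifi208*, 12 for *Bgn* and 10 for *Sparc*. The LP medians of *Cxcl12* (0.671 RPKM), *Sparcl1* (0.769) and *Col1a2* (0.925) lay under 1 RPKM too. The other 17 genes had a mean of at least 1 RPKM in all 4 tumour groups. By their known roles, 15 of the 23 near-absent genes encode matrix proteins or proteins that shape or fold them, 6 encode secreted signals or inhibitors, and the remaining ones are *Lyve1*, a hyaluronan receptor of lymphatic endothelium and some resident macrophages, and *Ifi208*, of an interferon-inducible family. The 17 broadly expressed genes had varied roles, and *Fam214b* was assigned none. The roles were assigned with the values known.

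**Figure D1:**
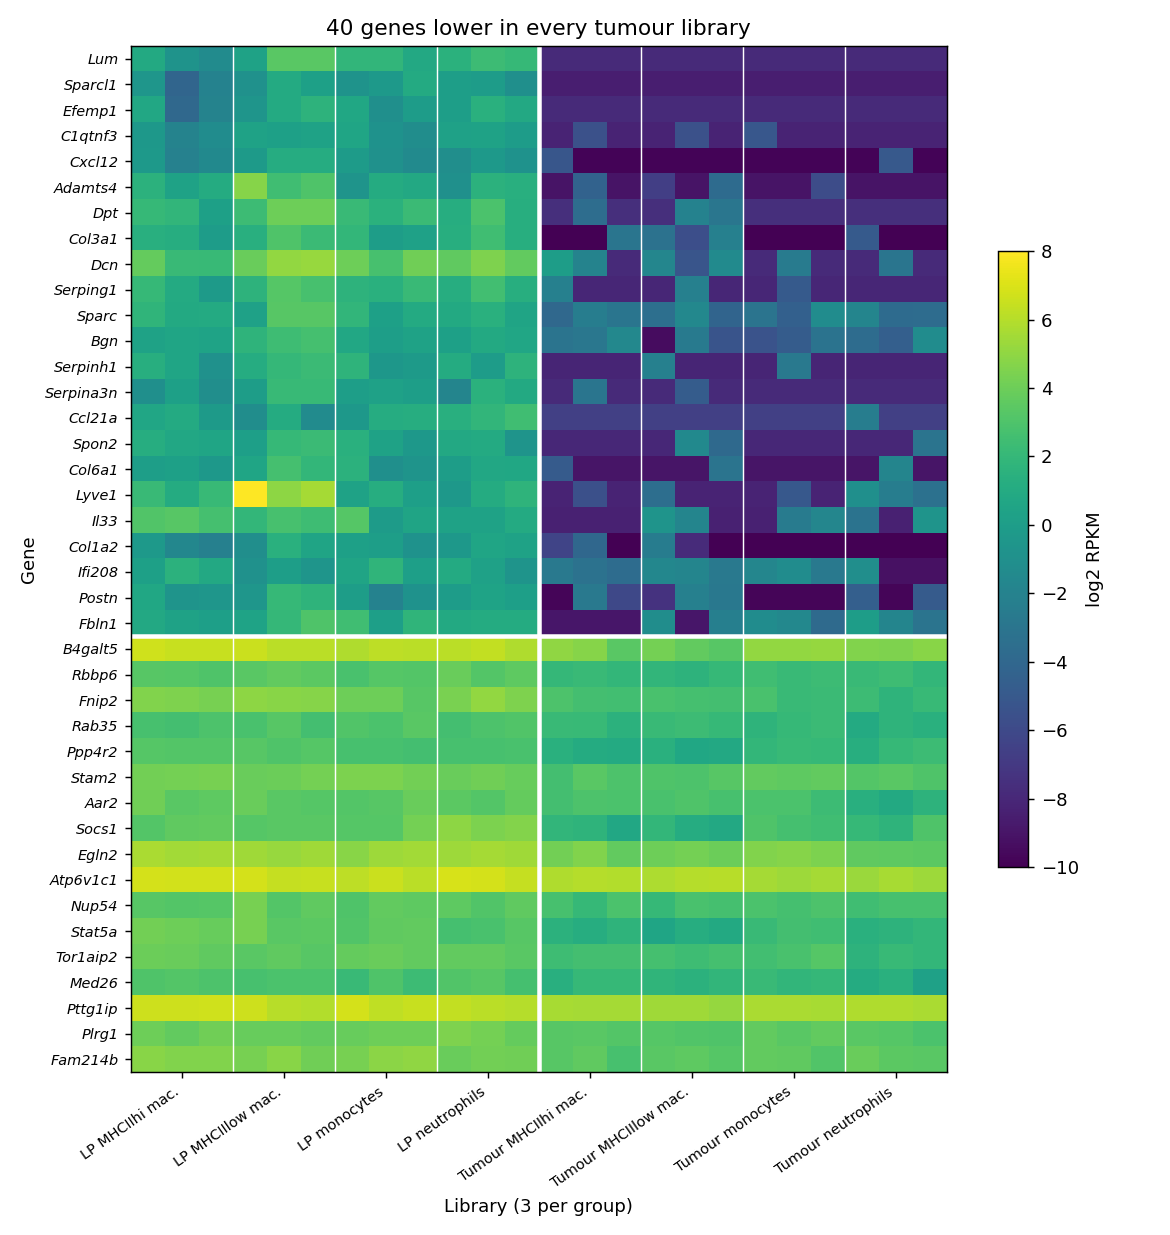
Heat map of deposited log2 RPKM for the 40 genes (rows) in the 24 libraries (columns, 3 per group; LP left and tumour right of the thick white line). The upper 23 genes reach no mean of 1 RPKM in any tumour group, and the lower 17 are expressed in both tissues.

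The sequence around the start sites, which the rule did not use, was compared between the 2 sets. RefSeq promoters (GRCm38.p6; 250 bases before to 50 after the start) were found for 32 of the 40 genes. For these the promoter nearest to the annotated gene start was taken, but for all tested genes the first one listed, so the choices were unlike. The nearest start lay 4878 bases away for *Rbbp6*, 3103 for *Sparc*, 804 for *Col1a2* and at most 305 for the rest. The 16 promoters of near-absent genes held a median of 5.5 CG dinucleotides (range 0 to 20), the 16 of broadly expressed genes a median of 30.0 (5 to 44), and the promoters of 9067 tested genes a median of 20.0. TATAAA, sought on both strands, occurred in 6 of the 16 near-absent promoters (37.5%), in 1 of the 16 broad ones (6.25%) and in 7.54% of all. GGGCGG, sought on both strands, occurred in 5 (31.3%), 10 (62.5%) and 62.8%. These are counts of letters in a window without a test. The 250 bases before the start are shown for a pair of genes from each set, with every CG, and every TATAAA or its reverse complement TTTATA, in capitals. *Col3a1* and *Postn*, of the first set, were chosen for their TATAAA and few CG, and *B4galt5* and *Ppp4r2*, of the second, because their tumour difference varied between populations. *Col3a1* lies at chr1:45311288-45311537 on the plus strand, *Postn* at chr3:54360857-54361106 on the plus strand, *B4galt5* at chr2:167349179-167349428 on the minus strand and *Ppp4r2* at chr6:100833388-100833637 on the plus strand, each written 5′ to 3′.
Col3a1: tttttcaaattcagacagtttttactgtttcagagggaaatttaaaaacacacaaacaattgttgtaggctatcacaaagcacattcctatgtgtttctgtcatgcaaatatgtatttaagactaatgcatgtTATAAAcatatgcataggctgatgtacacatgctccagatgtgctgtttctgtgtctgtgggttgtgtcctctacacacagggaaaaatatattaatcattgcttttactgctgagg
Postn: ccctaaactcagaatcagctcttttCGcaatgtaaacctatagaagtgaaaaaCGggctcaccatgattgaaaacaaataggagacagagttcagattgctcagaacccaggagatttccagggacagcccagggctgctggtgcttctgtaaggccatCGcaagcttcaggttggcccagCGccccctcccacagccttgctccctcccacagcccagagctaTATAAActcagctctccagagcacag
B4galt5: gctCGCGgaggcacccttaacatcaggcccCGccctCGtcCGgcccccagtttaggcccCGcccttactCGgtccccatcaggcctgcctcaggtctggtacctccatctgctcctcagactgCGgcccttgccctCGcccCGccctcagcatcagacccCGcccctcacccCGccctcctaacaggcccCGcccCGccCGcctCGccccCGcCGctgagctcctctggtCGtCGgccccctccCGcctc
Ppp4r2: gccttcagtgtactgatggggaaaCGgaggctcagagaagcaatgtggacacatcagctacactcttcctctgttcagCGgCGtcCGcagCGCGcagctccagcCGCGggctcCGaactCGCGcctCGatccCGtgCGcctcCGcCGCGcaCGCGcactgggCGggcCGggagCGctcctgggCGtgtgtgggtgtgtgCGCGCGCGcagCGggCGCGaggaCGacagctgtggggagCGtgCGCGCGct
These 250 bases held 0 CG in *Col3a1*, 4 in *Postn*, 21 in *B4galt5* and 35 in *Ppp4r2*.

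*Lum* (lumican), *Dcn* (decorin), *Bgn* (biglycan) and *Dpt* (dermatopontin) encode proteins that bind collagen fibrils and set their spacing. *Lum* had 26 to 460 reads in the 12 LP libraries (median 155; 3.22 RPKM) and 0 reads in each of the 12 tumour libraries, which put the LP median at least 17.1-fold above the level of 3 reads in a tumour library. *Dcn* had the highest LP median of the near-absent genes, 13.8 RPKM (4.29 to 37.4), against 0.0741 RPKM (0.00425 to 1.02) in tumours, where 0 to 58 reads were counted. *Dpt* lay between 1.19 and 16.7 RPKM in LP (median 4.41) and between 0 and 18 reads in tumours, with 0 reads in 9 tumour libraries. *Bgn* was found in more of the tumour libraries than *Lum* or *Dpt*, with 0 to 58 reads (median 12), against 154 to 819 reads in LP, or 1.05 to 6.53 RPKM. None of these genes overlapped between the tissues, as the rule demands, but their distance from zero in tumours differed.

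*Col3a1* and *Col1a2* encode chains of fibrillar collagens, and *Serpinh1* a collagen chaperone of the endoplasmic reticulum. *Col3a1* had 294 to 1719 reads in LP (median 793.5, 2.5 RPKM) and 0 to 62 in tumours, with 0 reads in 7 tumour libraries. *Serpinh1* had 32 to 246 reads in LP (median 2.17 RPKM) and 0 to 14 reads in tumours. *Col1a2* was the lowest of the collagens per length, with an LP median of 0.925 RPKM and 0 to 60 reads in tumours. *Col6a1*, a chain of the beaded collagen VI, had an LP median of 1.35 RPKM and at most 14 tumour reads. All 3 tumour monocyte libraries were at 0 reads for *Col3a1*, *Col1a2* and *Col6a1*. Tumour MHCIIlow macrophages held 8, 28 and 62 reads of *Col3a1*.

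Matricellular and other matrix genes followed. *Sparcl1*, a SPARC-like glycoprotein, had 8 to 222 reads in LP (median 0.769 RPKM) and *Efemp1*, a fibulin, 6 to 142 reads (median 1.36 RPKM), and both were at 0 reads in all 12 tumour libraries, so their LP medians were at least 6.12-fold and 7.08-fold above 3 reads. *Sparc*, a collagen-binding glycoprotein, was the near-absent gene seen in every tumour library, with 2 to 48 reads (median 0.107 RPKM) against 102 to 714 reads in LP (median 1.98 RPKM). *Adamts4*, a protease of aggrecan-type proteoglycans, had 58 to 5271 reads in LP and 0 to 10 in tumours. Its highest library, LP MHCIIlow donor II at 26.4 RPKM, lay well above the other libraries of that group (5.53 and 8.16 RPKM). The remaining matrix genes *Spon2*, *Postn* and *Fbln1* had LP medians of 1.79, 1.01 and 2.03 RPKM and narrow gaps of 0.80, 0.13 and 0.087 log2 units.

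Of the secreted signals, *Cxcl12*, the ligand of CXCR4 that retains leucocytes in tissue, had 86 to 398 reads in LP (median 0.671 RPKM) and 0 to 6 reads in tumours. *Ccl21a*, a ligand of CCR7 made by lymphatic vessels, had 6 to 102 reads in LP (median 2.09 RPKM) and 0 to 2 reads in tumours. Of the 51-base stretches of *Ccl21a* transcripts, 71.2% also occur in other annotated genes, among them *Ccl21b*, so its reads cannot be assigned to a single copy. *Il33*, a nuclear alarmin of stromal and epithelial cells, had an LP median of 4.56 RPKM (0.908 to 10.2) and was at 0 reads in all 3 tumour MHCIIhi libraries. *C1qtnf3*, a secreted C1q-like protein, had 32 to 139 reads in LP (median 1.09 RPKM) and 0 to 2 in tumours. Of the inhibitors, *Serping1*, the C1 inhibitor of complement, lay at 3.11 RPKM in LP (0.882 to 9.35; 0 to 22 reads in tumours), and *Serpina3n*, an acute-phase protease inhibitor, at 1.12 RPKM (0.288 to 4.37; 0 to 11 reads in tumours), of whose stretches 6.41% are shared with relatives.

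*Lyve1* had the highest single value of the near-absent genes. It had 48 to 32258 reads in LP and 0 to 16 in tumours, and LP MHCIIlow macrophages held 30.2, 47.6 and 298 RPKM, the last in donor II, against 2.08 to 4.67 RPKM in LP MHCIIhi macrophages. Tumour neutrophils were the only tumour group with reads of *Lyve1* in every library (0.103, 0.192 and 0.495 RPKM). *Ifi208* had 62 to 801 reads in LP and 0 to 64 in tumours, with 0 reads in 2 tumour libraries, and shares 20.3% of its stretches with *Ifi213* and *Ifi206*.

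**Figure D2:**
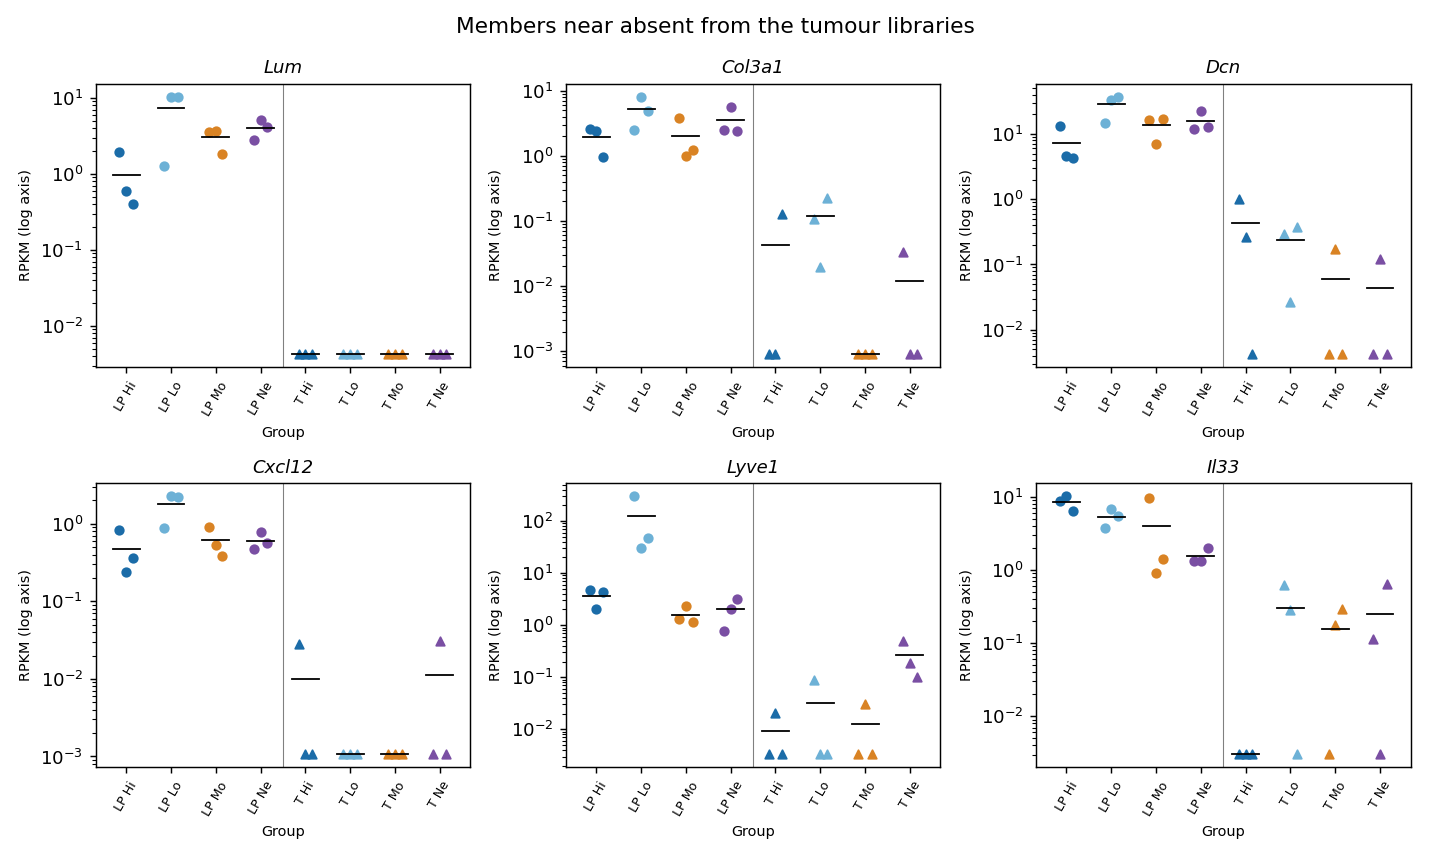
RPKM (log axis) of 6 near-absent genes in each library, circles for LP and triangles for tumour, with the group mean as a bar (Hi and Lo, MHCIIhi and MHCIIlow macrophages; Mo, monocytes; Ne, neutrophils). The lowest row of points marks libraries with 0 reads, set by the prior count of 0.25 reads, and the 12 tumour libraries of *Lum* all lie there.

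Summed over the 23 near-absent genes, LP libraries held 95.1 to 1407 reads per 1000000 reads (median 183), or at most 835 without LP MHCIIlow donor II, where *Lyve1* gave 32258 of 44090 reads, and tumour libraries 1.83 to 13.7 (median 5.68). Every LP library had more than 3 reads for all 23 genes, whereas tumour libraries had more than 3 reads for 3 to 11 of them. Of all gene counts from 1 to 10 reads, 66.0% were even, so 2 reads can be both ends of 1 fragment. LP libraries held 12.8 M to 41.7 M reads on genes (median 31.2 M) and tumour libraries 15.9 M to 35.9 M (median 24 M). Among the LP libraries the near-absent genes varied together. Over the 253 pairs the median Pearson correlation of log2 RPKM across 12 LP libraries was 0.52, and 0.45 after each population was centred. It was 0.096 for the pairs of the 17 broad genes. The median range over LP libraries was 3.49 log2 units for near-absent and 0.92 for broad genes, so the sets were not compared at equal spread. *Cxcl12* (median 0.75 with the other near-absent genes), *Dcn* (0.73) and *Dpt* (0.69) were the closest to the rest, while *Ifi208* (−0.45) and *Ccl21a* (−0.22) went the other way. All points share libraries and their normalization, and no test was made. In bulk RNA, fewer cells of a type and less RNA per cell cannot be told apart.

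Because the near-absent set held 5 of the 15 genes of a fibroblast and smooth muscle list (*Col1a2*, *Col3a1*, *Dcn*, *Lum* and *Dpt*), the whole list was examined. Its summed RPKM was 13.5 to 29.3 in LP MHCIIhi macrophages, 33.2 to 95.1 in LP MHCIIlow macrophages, 25.5 to 39.1 in LP monocytes and 71.2 to 105 in LP neutrophils. In tumours it was 1.77 to 5.17, 3.11 to 4.24, 7.02 to 9.08 and 54.0 to 75.3 in the same order. *Acta2*, smooth muscle actin, made up most of the sum in neutrophils of both tissues (43.7 to 69.0 RPKM in LP and 44.2 to 66.9 in tumours), and was named after its values were seen. The median tumour minus LP difference of the list's 13 tested genes ran from −5.89 to −1.67 log2 units over the 4 populations. These values rest on the prior count where genes were at 0 reads. The 5 genes named above are lower in every tumour library by the rule. The sums, medians and counts of the list include them and are partly fixed by it, and no values without them are given. Of the 15 genes, 10, 14, 11 and 9 had over 3 reads in all 3 LP libraries of MHCIIhi macrophages, MHCIIlow macrophages, monocytes and neutrophils, against 5, 5, 4 and 3 in tumours. At 0 reads in all 3 libraries were 0, 0, 0 and 1 in LP, and 2, 3, 9 and 8 in tumours. *Pdgfra*, a defining fibroblast receptor, had 0 to 91 reads in LP and was at 0 reads in 11 of the 12 tumour libraries (8 reads in the other). In neutrophils *Tagln*, a smooth muscle protein, had 2.35 to 6.20 RPKM in LP and 5.31 to 6.91 in tumours, and *Col1a1* 2.71 to 5.75 in LP and 1.22 to 1.49 in tumours. These genes too were named after their values were seen. How far the near-absent genes follow the amount of stromal RNA in the sorted cells was not tested.

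**Figure D3:**
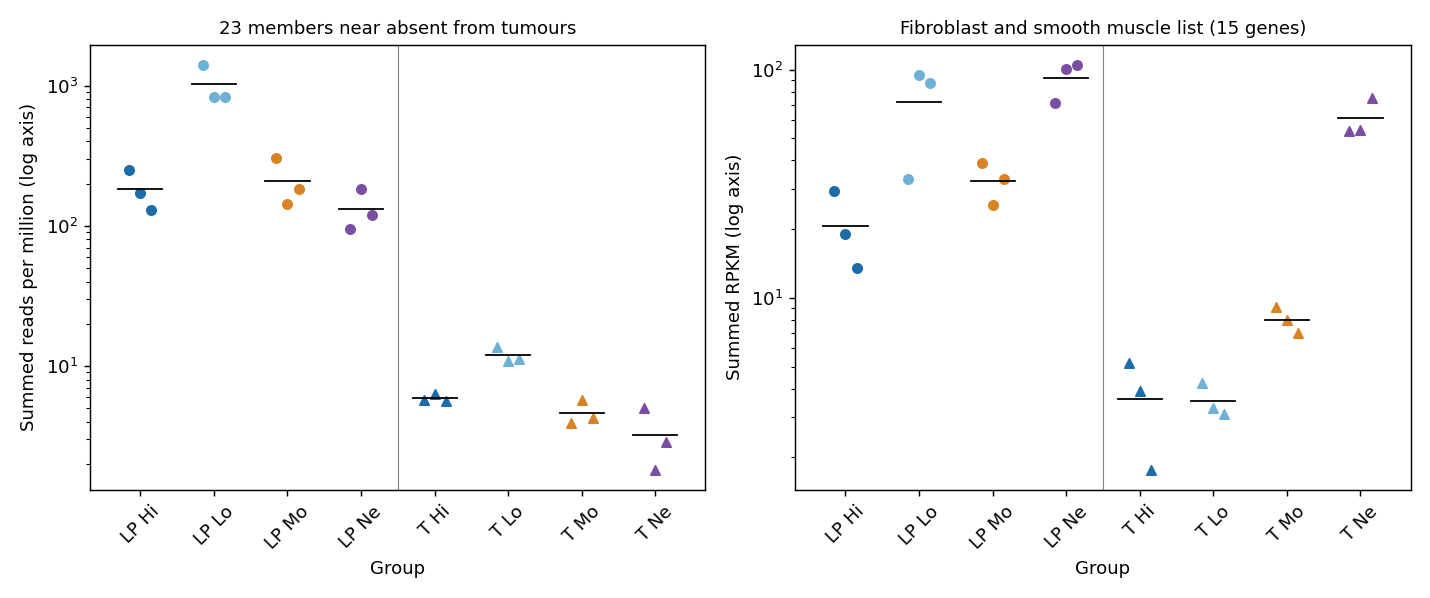
Left, summed reads per 1000000 of the 23 near-absent genes; right, summed RPKM of the 15-gene fibroblast and smooth muscle list; both log axes, 1 point per library, bars for group means. The 23 genes were chosen as lower in every tumour library, so the separation in the left panel follows from the rule (1.83 to 13.7 in tumours, 95.1 to 1407 in LP). In the right panel 5 of the 15 genes were chosen by that rule too, and the neutrophil ranges of the tissues overlap.

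Markers of other cells moved in several directions. Epithelial (13 genes tested), erythroid (4) and mast cell (6) lists had median tumour minus LP differences above 0 in all 4 populations, up to 2.83 log2 units for the epithelial list. No size is given for the other lists, since 5 erythroid genes were at 0 reads in all 3 LP neutrophil libraries and 4 to 6 mast cell genes in all 3 libraries of each LP group. B and plasma cell (12), dendritic cell (8), endothelial (4) and enteric neuron and glia (1) lists had medians under 0 in all of them, down to −4.92 for the B and plasma cell list and −3.38 for the dendritic cell list. Up to 4 endothelial and 2 enteric genes were at 0 reads in all 3 libraries of a tumour group, and no size is given for them. The macrophage list (12 genes) stayed between −0.079 and 0.13, and the ranges were −2.95 to 0.73 for monocyte, 0.065 to 2.28 for neutrophil, −2.40 to 1.98 for T and NK cell, and −2.27 to 0.016 for eosinophil markers. None of these lists held any of the 40 genes. Medians over all tested genes were 0 in MHCIIhi macrophages, 0.061 in MHCIIlow macrophages, 0 in monocytes and −0.12 in neutrophils.

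Of the 10 pathway lists none held any of the 40 genes either. The 28 interferon-stimulated genes, the list nearest to *Socs1*, *Ifi208* and *Ifit1*, had medians of −2.10, −2.0, −0.98 and −0.52 in MHCIIhi macrophages, MHCIIlow macrophages, monocytes and neutrophils, and 24, 21, 17 and 11 of them had all 3 tumour libraries under all 3 LP libraries. The median differences of the other lists over the 4 populations were 0.17 to 1.10 for immediate-early genes, −1.29 to 0.24 for heat shock proteins, −0.16 to 0.43 for circadian clock genes, −0.17 to 0.37 for TGF-beta genes, −1.16 to 0.091 for retinoic acid and aryl hydrocarbon receptor genes, −0.97 to 0.71 for mitochondrially encoded genes, −0.18 to 0.68 for cytosolic ribosomal proteins, −0.30 to 0.48 for KRAB cofactors and −0.33 to 0.0039 for spliceosome and RNA-binding genes. *Nnt*, which carries a deletion in the C57BL/6J substrain, was read as a check of substrain and had 86 to 799 reads in LP and 85 to 1285 in tumours. Reads were counted over the whole gene and cannot show whether part of it is missing, so this check cannot tell the substrain.

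The 17 broadly expressed genes were lower in tumours by 1.58-fold to 3.92-fold in the ratio of library means (median 2.19-fold). Their LP medians ran from 7.58 RPKM (*Rab35*) to 102 RPKM (*Atp6v1c1*), with at least 29 reads in every tumour library. *B4galt5*, which makes lactosylceramide in the Golgi, had the widest gap of this set, 0.68 log2 units, with 57.7 to 106 RPKM in LP (median 73.0) and 9.90 to 35.9 RPKM in tumours (median 24.9). *Fnip2*, a folliculin partner in nutrient sensing, had the largest ratio, with 10.1 to 33.2 RPKM in LP (median 22.8) and 3.24 to 7.89 in tumours (median 6.06). The cytokine pathway was represented by its transducer *Stat5a* (6.39 to 20.2 RPKM in LP, 1.46 to 6.14 in tumours) and by *Socs1*, an inhibitor that it can induce (8.98 to 31.3 RPKM in LP, 1.70 to 8.34 in tumours). *Egln2*, a prolyl hydroxylase of hypoxia-inducible factors, lay between 27.8 and 52.9 RPKM in LP and between 11.3 and 26 in tumours. Of the *Stat5a* stretches, 8.07% are shared with *Stat5b*.

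Of the rest of this set, *Fam214b*, with the narrowest gap, had 15 to 33.0 RPKM in LP and 6.81 to 14.9 in tumours. In trafficking and organelles these were *Rab35* (an endosomal recycling GTPase), *Stam2* (of the endosomal sorting complex), *Atp6v1c1* (a subunit of the vacuolar proton pump) and *Tor1aip2* (a torsin activator of the endoplasmic reticulum), with gaps of 0.26, 0.13, 0.089 and 0.051 log2 units. In the nucleus these were *Rbbp6* (a ubiquitin ligase), *Med26* (a Mediator subunit), *Nup54* (a nuclear pore protein), *Aar2* and *Plrg1* (splicing factors), and *Pttg1ip* (a binding partner of securin), with gaps of 0.39, 0.051, 0.082, 0.11, 0.019 and 0.040. *Ppp4r2*, a regulatory subunit of protein phosphatase 4, had a gap of 0.25 and shares 13.8% of its stretches with other annotated genes, and *Nup54* shares 13.6%. Of the *Med26* exon bases, 12.7% lie in another gene on either strand.

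Scaling between libraries mattered for this set. Centring libraries on their median kept 6 of the 17 broad and 21 of the 23 near-absent genes, quantile normalization kept 9 and 16, and library sizes taken as summed reads kept 3 and 19. All 3 scalings together kept 15 near-absent genes but 1 broad gene, *Fnip2*. The 15 were *Adamts4*, *Bgn*, *C1qtnf3*, *Col1a2*, *Col3a1*, *Dcn*, *Dpt*, *Efemp1*, *Lum*, *Lyve1*, *Serpina3n*, *Serping1*, *Serpinh1*, *Sparc* and *Sparcl1*. Scaled sizes departed most from the reads counted in neutrophils, whose library sizes as scaled by the authors were 0.47 to 0.68 of their summed reads against 0.98 to 1.51 in the other groups.

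**Figure D4:**
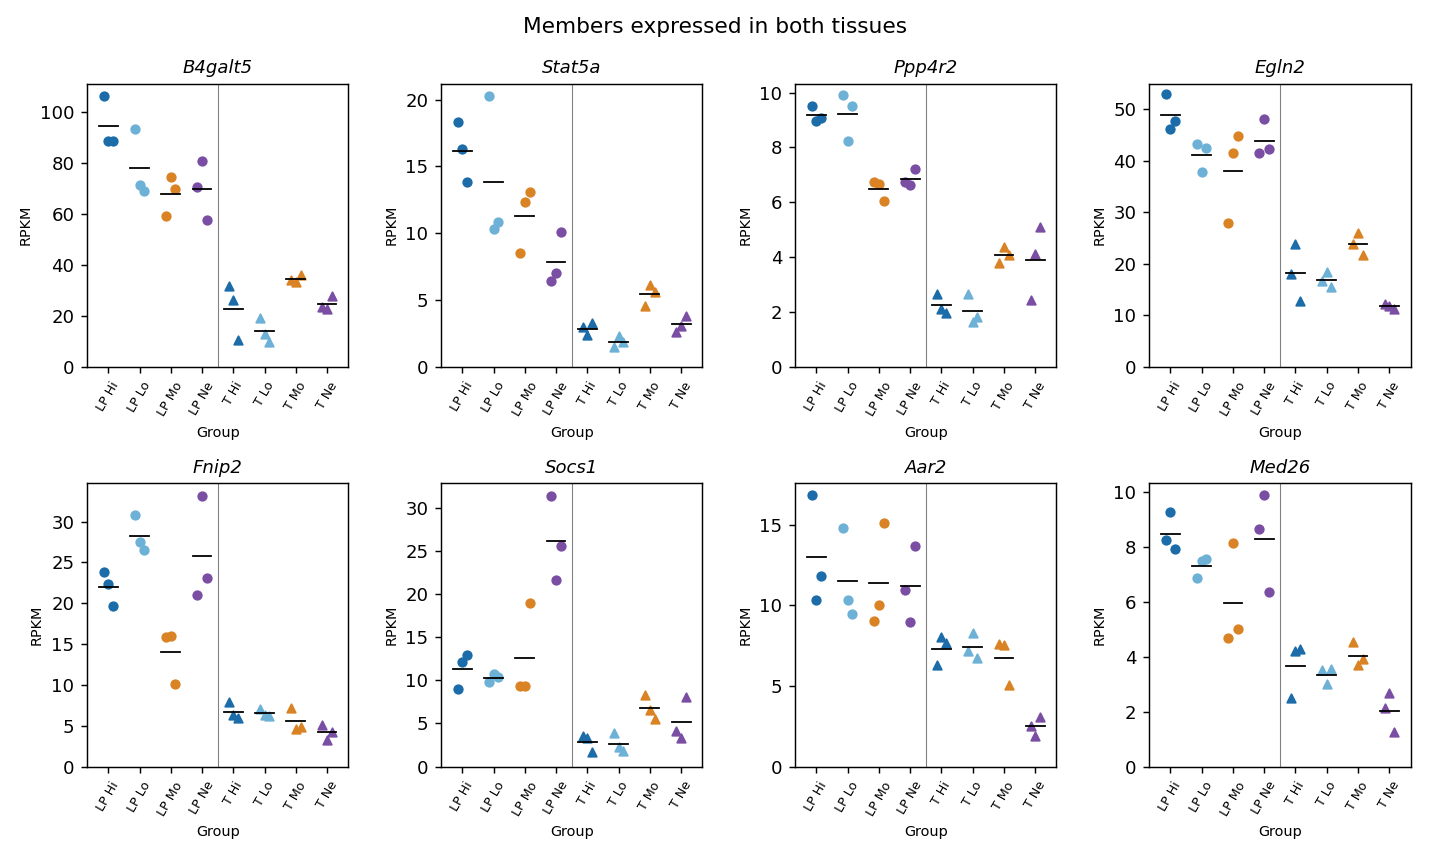
RPKM (linear axis from 0) of 8 broadly expressed genes in each library, circles for LP and triangles for tumour, with the group mean as a bar. *B4galt5*, *Stat5a* and *Ppp4r2* are lowest in tumour macrophages, and *Aar2* and *Med26* in tumour neutrophils.

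The rule fixes that each gene is lower in tumours in all 4 populations, but not whether by the same amount, and this was tested with limma as the difference of the tumour effects. The effect was larger in macrophages (mean of both subsets) than in monocytes for *B4galt5*, *Stat5a*, *Ppp4r2* and *Egln2*, 4 of the 40 genes, while 9.19% of all tested genes were called (3.55% with a higher effect and 5.64% with a lower one). *Stat5a* differed by −2.67 log2 units between tumour and LP macrophages and by −1.05 in monocytes, a difference of −1.62 ± 0.33 (SE; adjusted p = 0.00295). *Ppp4r2* differed by −2.13 and −0.67 (difference −1.45 ± 0.28; adjusted p = 0.00201). *B4galt5* differed by −2.35 and −0.97 (difference −1.38 ± 0.35; adjusted p = 0.0148). These 3 stayed under the threshold in all 10 alternative fits and without any single library. *Egln2* differed by −1.38 and −0.65 (difference −0.73 ± 0.22; adjusted p = 0.0439), and was called in 5 of the 18 fits without 1 library and not with the replicate block (adjusted p = 0.183). The median difference over the 40 genes was −0.15, and 0.026 over all genes. Among interferon-stimulated genes, the tumour effect was called lower in macrophages for 6 of 28 and higher for 0.

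In neutrophils against monocytes, 5 of the 40 genes were called, all with a larger effect in neutrophils, and 9.11% of all genes (3.61% higher, 5.5% lower). *Med26* differed between tumour and LP by −2.08 log2 units in neutrophils and −0.52 in monocytes (difference −1.57 ± 0.39; adjusted p = 0.0153). *Aar2* differed by −2.17 and −0.74 (difference −1.43 ± 0.36; adjusted p = 0.0168). *Fnip2* differed by −2.61 and −1.33 (difference −1.28 ± 0.31; adjusted p = 0.0140). *Egln2* differed by −1.90 and −0.65 (difference −1.25 ± 0.26; adjusted p = 0.00457), and *Tor1aip2* by −1.71 and −0.89 (difference −0.82 ± 0.25; adjusted p = 0.0463). With quantile normalization none of these 5 was called, and *Lyve1* was, in the other direction. With the compared libraries alone *Egln2* was called, and with voom *Egln2* and *Fnip2*. *Tor1aip2* was called in 2 of 10 alternatives and 4 of 12 fits without 1 library, and with the replicate block it was not (adjusted p = 0.0504). With that block *Socs1* and *Pttg1ip* were called. The effect in neutrophils was larger for *Socs1* but smaller for *Pttg1ip* (−0.35 against −0.86 in monocytes). Among interferon-stimulated genes, the tumour effect was called higher in neutrophils for 3 and lower for 1.

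**Figure D5:**
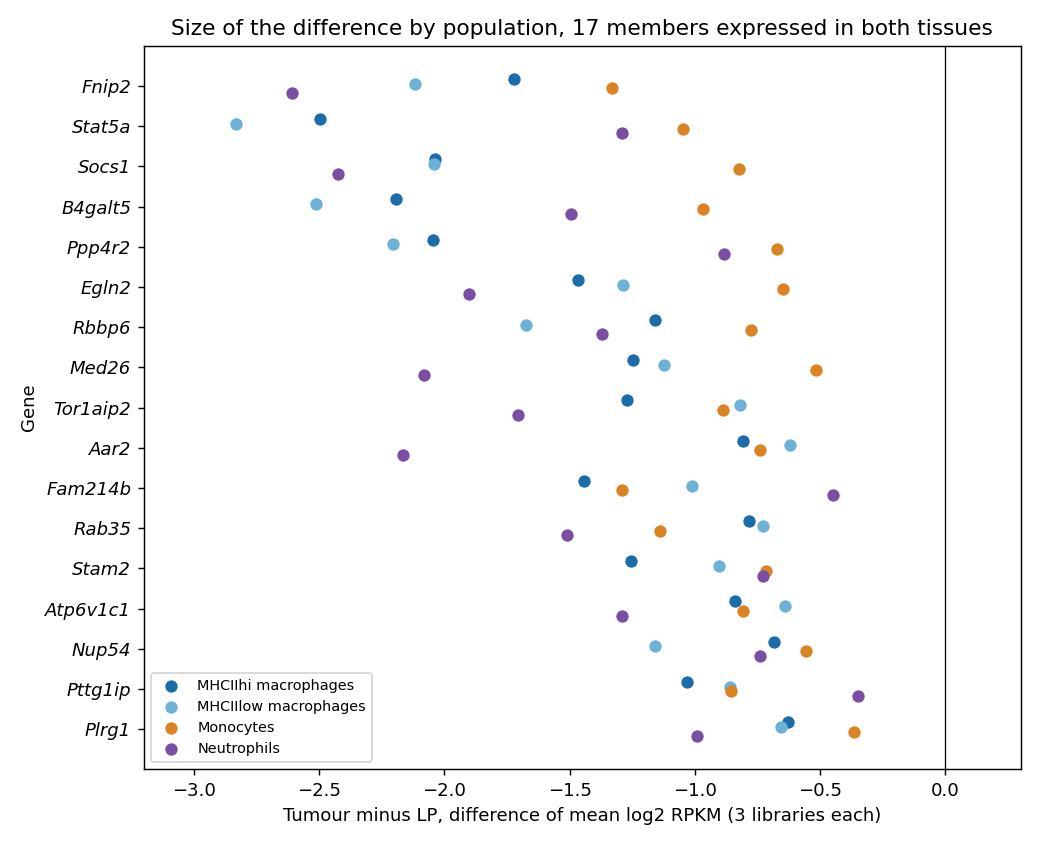
Tumour minus LP difference of mean log2 RPKM (3 libraries in each tissue) for the 17 broadly expressed genes in each population. Differences in monocytes run from −0.37 (*Plrg1*) to −1.33 (*Fnip2*), and the vertical line marks no difference.

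Between MHCIIlow and MHCIIhi macrophages the tumour effect was called to differ for 0 of the 40 genes (limma), against 1.46% of all tested genes (1.13% higher, 0.326% lower), and 3 had an unadjusted p under 0.05. These were *Bgn* (difference −5.09 ± 1.66; adjusted p = 0.153), *Lyve1* (−3.74 ± 1.75; adjusted p = 0.375) and *Lum*, for which all tumour libraries were at 0 reads, so that its value is the LP difference with the sign turned and tells nothing of a tumour effect. *Lyve1* had 0 to 6 reads in tumour macrophages, so its value rests on the prior count too. With log2(RPKM + 1), 3 were called, *Bgn*, *Dcn* and *Lyve1*, and with voom on the recovered reads *Bgn*. In tumour macrophages *Lyve1* reached at most 0.090 RPKM, *Bgn* 0.33 and *Dcn* 1.02. On the log2(RPKM + 1) scale their values therefore rest largely on LP levels. All 3 were also called between the LP subsets on that scale, so these calls say little of a tumour effect. Of all 12878 tested genes, 473 were called with log2(RPKM + 1) and 539 with voom.

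Levels within LP, which the rule did not compare between populations, were tested next. Of the 23 near-absent genes, 19 had their highest LP mean in MHCIIlow macrophages, and 20 were higher there than in MHCIIhi macrophages. Their median difference was 1.67 log2 units (−0.21 for the broad genes and −0.030 over all tested genes). The shares of all tested genes in these orders were not computed, so the 2 counts are description only. By limma 1 gene passed the threshold, *Lyve1* (6.24 ± 1.75 log2 RPKM against 1.79 ± 0.64, SD, n = 3; difference 4.44 ± 1.24 SE, adjusted p = 0.0309), while 7.7% of all tested genes did, 2.13% higher and 5.57% lower. *Lum* differed by 2.74 ± 0.85 (adjusted p = 0.0528) and *Dcn* by 2.04 ± 1.70 (adjusted p = 0.584). On the log2(RPKM + 1) scale 14 genes were called, all of them near-absent ones and higher in MHCIIlow macrophages, and 8 with voom. Of all 12878 tested genes, 1695 were called on that scale (738 higher) and 1840 with voom (741 higher). With the replicate block *Pttg1ip* was called in place of *Lyve1*, and it was lower in MHCIIlow macrophages. For *Lyve1*, the call was lost with the replicate block (adjusted p = 0.160), with the compared libraries alone, and in 5 of 6 fits without 1 library, among them that without LP MHCIIlow donor II, the library with 32258 reads (adjusted p up to 0.167).

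LP macrophages against LP monocytes gave 3 of the 40 genes, all higher in macrophages, and 29.5% of all tested genes (12.5% higher, 17.0% lower). *Fnip2* was 0.86 ± 0.19 log2 units higher (4.64 against 3.78; adjusted p = 0.00185), *Lyve1* 3.42 ± 1.07 (4.01 against 0.59; adjusted p = 0.0201) and *Atp6v1c1* 0.37 ± 0.13 (6.69 against 6.31; adjusted p = 0.0348). With the replicate block 1 gene, *Fnip2*, was called, with adjusted p = 0.0532 for *Lyve1* and 0.109 for *Atp6v1c1*. *Lyve1* was not called without LP MHCIIlow donor II, LP monocyte donor III or donor V (adjusted p up to 0.0773), and *Atp6v1c1* stayed called in 3 of the 9 fits without 1 library.

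LP neutrophils against LP monocytes gave 5 of the 40 genes (3 higher, 2 lower) and 54.5% of all tested genes (24.1% higher, 30.4% lower). *Socs1* was higher in neutrophils (4.69 ± 0.27 against 3.57 ± 0.59 log2 RPKM, SD, n = 3; difference 1.13 ± 0.36 SE, adjusted p = 0.0116), as was *Fnip2* (0.88 ± 0.22; adjusted p = 0.00216). With summed reads as library sizes neither was called (adjusted p = 0.453 for *Socs1* and 0.835 for *Fnip2*), and *Socs1* was not called with quantile normalization either. *Atp6v1c1* was higher by 0.41 ± 0.15 (adjusted p = 0.0237), but lower by quantile normalization (−0.33) and with summed reads as library sizes (−0.41). *Fam214b* was lower in neutrophils (−0.70 ± 0.23; adjusted p = 0.0126), but not called after median centring (−0.41; adjusted p = 0.130). *Pttg1ip* was lower too (−0.38 ± 0.15; adjusted p = 0.0453), and 4 of 10 alternatives did not call it. With summed reads the median over all tested genes moved from −0.24 to −1.05, and 13 of the 40 genes were called, all lower. Of all 12878 tested genes, 7926 were called with that scaling, 6229 of them lower. *Socs1* was not called without LP monocyte donor III or IV or LP neutrophil donor III (adjusted p up to 0.0549), *Fam214b* without LP monocyte donor V (0.0725), and *Atp6v1c1* and *Pttg1ip* were each called in 2 of 6 fits without 1 library.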

How the data were processed

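RNA from sorted cells was amplified with SMARTSeq v2 and sequenced paired-end. The authors aligned reads to GRCm38 with STAR 2.3, counted GENCODE genes with featureCounts 1.5, removed genes with under 10 reads on average and deposited log2 RPKM from edgeR (prior count 0.25). Whole reads were recovered from the deposited log2 values (100% of 415224 values within 0.05 reads) and gave 12.8 M to 41.7 M reads per library, with counting error largest for genes near 0 reads.

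Groups followed the labels. Differences on the log2 scale were fitted with limma 3.58.1 (trend, R 4.3.3) as 8 group means over 24 libraries and 12878 genes, with Benjamini-Hochberg adjustment at 0.05, two-sided, for 6 contrasts that the rule did not use. The fit was tested on simulated data. Per the study's methods, replicates were separate sorts of pooled mice. The genes and the 23 gene lists were chosen with earlier results of these data known. All 40 genes could be named, with library values for the 15 with the widest gap and statistics for those called (at most 5 each way), beside the 3 genes on each side of a threshold and *Nnt*. *Acta2*, *Tagln*, *Col1a1* and *Pdgfra* were added after their values were seen. The pairing comes from the labels, which give libraries of a tissue the same donor, here a pool of mice. Deviations of the 29 same-number pairs within a tissue correlated at −0.066 to 0.25 (median 0.017; 79 other pairs, −0.011), 5 of them over 0.1.

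Alternatives were another pseudocount, filters, scalings, sample sets, weights, voom on recovered reads, a replicate block (donor within tissue) and leaving out each library, of which voom and summed reads as library sizes were chosen after seeing the data. Figures were drawn with matplotlib 3.10.9.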

Additional observations from a re-analysis of the deposited data

Results flagged for a closer look

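The tumour effect of 8 of the 40 genes differed between populations by a test of the difference itself (limma, adjusted over all 12878 genes), in 9 comparisons. For macrophages against monocytes 4 of the 40 genes were called and 9.19% of all genes, and for neutrophils against monocytes 5 and 9.11%, so the members' shares were near the background. Macrophages minus monocytes gave −1.62 for *Stat5a*, −1.45 for *Ppp4r2*, −1.38 for *B4galt5* and −0.73 for *Egln2* on the log2 scale. Neutrophils minus monocytes gave −1.57 for *Med26*, −1.43 for *Aar2*, −1.28 for *Fnip2*, −1.25 for *Egln2* and −0.82 for *Tor1aip2*. Both comparisons share the monocyte libraries. With the replicate block *Egln2* in macrophages (adjusted p = 0.183) and *Tor1aip2* (0.0504) were not called, and *Egln2* in macrophages was called in 5 of 18 fits without 1 library.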

How the results depend on the processing

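Calls among the 40 genes moved most with the scale and the scaling. For LP MHCIIlow against MHCIIhi macrophages (1 called) there were 3 with array weights, 2 with summed reads, 14 with log2(RPKM + 1), 2 with quantile normalization and 8 with voom. For LP macrophages against monocytes (3) there were 8 with log2(RPKM + 1), 5 with quantile normalization, 7 with voom and 1 with the replicate block. For LP neutrophils against monocytes (5) there were 13 with summed reads and 3 with the compared libraries alone. For the tumour effects, MHCIIlow against MHCIIhi (0) gave 3 with log2(RPKM + 1) and 1 with voom, macrophages against monocytes (4) gave 7 with quantile normalization, and neutrophils against monocytes (5) gave 9 with summed reads, 1 with the compared libraries alone, 1 with quantile normalization and 2 with voom. Without 1 library the counts ran from 0 to 2, 1 to 3, 3 to 6, 0 to 2, 3 to 5 and 4 to 6 in that order, and the rule gave 41 to 49 genes. Leaving out a library can only loosen the order that the rule demands, so this last range is no measure of stability. The rule gave 31 genes after median centring (27 shared), 35 with quantile normalization (25 shared), 46 with summed reads (22 shared) and 27 at a mean RPKM of at least 5. *Atp6v1c1* in LP neutrophils reversed, to −0.33 with quantile normalization and −0.41 with summed reads. The causes were not tested. With the replicate block, *Lyve1* and *Atp6v1c1* in LP macrophages against monocytes, *Egln2* in macrophages and *Tor1aip2* were not called. *Socs1*, with a larger effect in neutrophils than in monocytes, and *Pttg1ip*, with a smaller one, were added for the effect in neutrophils. For LP MHCIIlow against MHCIIhi macrophages *Pttg1ip*, lower in MHCIIlow, was called in place of *Lyve1*, with no other change of call among the 40 genes. Over all 12878 tested genes, calls for LP MHCIIlow against MHCIIhi macrophages were 991, against 1695 with log2(RPKM + 1) and 1840 with voom. LP macrophages against monocytes gave 3796, against 4880 with log2(RPKM + 1) and 5114 with voom. LP neutrophils against monocytes gave 7016, against 7926 with summed reads. The effect in MHCIIlow against MHCIIhi gave 188, against 473 with log2(RPKM + 1) and 539 with voom. For the effect in neutrophils there were 1173, against 528 with quantile normalization and 1806 with summed reads.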
